A study of Homo sapiens with 24 samples.

Results

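The 10 genes described here, HSPA8, HSPA1A, HSPA1B, HSPH1, DNAJB1, HSP90AA1, HSP90AB1, HSPB1, HSPD1 and HSPE1, encode heat shock chaperones of the cytosol and the mitochondrion. They were chosen by symbol, each matched 1 row, and they make up 10 of the 48162 genes listed for every library. RNA-seq covered 8 groups of 3 libraries: 2 immortalised human pancreas lines, hTERT-HPNE (HPNE) and HPDE-H6c7 (HPDE), under 4 treatments of 24 h, all in keratinocyte serum-free medium. Untreated cells received fresh medium, and a second control received the residual medium left over when extracellular vesicles (EV, the membrane-bound particles that cells release) had been isolated. The other cells received 1e10 EV per well, either of PANC-1 (an established carcinoma line of the pancreas) or of PPCL-68 cells. HPNE cells carry the telomerase gene and HPDE cells are a clone of duct epithelium immortalised with papillomavirus genes, so each line stands for 1 culture model of the normal pancreas. The design text calls the libraries biological triplicates without saying that they came from separate cultures, so p-values measure only the spread between these libraries. HSPA8 was selected on its fall in HPDE cells given PANC-1 EV, so its values in HPDE comparisons that use those libraries or residual medium, and the differences between the lines in its response, are given as a description with no test. The comparison of untreated HPDE with untreated HPNE cells uses neither and was tested.

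Chaperones hold unfolded proteins, let them fold, or pass them on for degradation. HSPA8 (HSC70) is the constitutive cytosolic HSP70, HSPA1A and HSPA1B are stress-inducible relatives and near-copies of each other, DNAJB1 (HSP40) delivers substrates to them and stimulates their ATPase, and HSPH1 (HSP110) exchanges their nucleotide. HSP90AA1, the inducible isoform, and HSP90AB1, the constitutive one, complete the folding of kinases and steroid receptors. HSPB1 (HSP27) is a small heat shock protein that holds unfolded proteins without ATP, and HSPD1 (HSP60) and HSPE1 (HSP10) form the folding chamber of the mitochondrial matrix. Heat shock factor 1 (HSF1) drives most of these genes from heat shock elements, inverted repeats of GAA and TTC, when unfolded protein builds up in the cytosol.

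The promoters of these genes were searched for heat shock elements, which the choice of genes did not use. RefSeq gives 16 promoter windows for the 10 genes on build GRCh38.p14, each from 250 bases before to 50 bases after a start site. The motif searched was 3 alternating units, GAANNTTCNNGAA or TTCNNGAANNTTC, each of which is the other read on the opposite strand. It was found in 172 of 35116 windows (0.49%) in RefSeq and in windows of 4 of the 10 genes. The lines below give 30 bases on the gene's strand, with the motif in capitals.
HSPA8, chr11:123062345-123062374, minus strand, -230 to -218 from the start: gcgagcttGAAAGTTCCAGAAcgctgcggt
HSPA8, chr11:123062170-123062199, minus strand, -55 to -43: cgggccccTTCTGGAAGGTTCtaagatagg
HSP90AA1, chr14:102087111-102087140, minus strand, -88 to -76: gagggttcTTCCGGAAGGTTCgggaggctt
HSP90AB1, chr6:44247770-44247799, plus strand, -165 to -153: ggagcaggTTCTGGAAGATTCatgggctcc
HSP90AB1, chr6:44247823-44247852, plus strand, -112 to -100: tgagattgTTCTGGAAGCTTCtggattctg
HSPD1, chr2:197500061-197500090, minus strand, -245 to -228: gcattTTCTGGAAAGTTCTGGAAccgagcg
The shorter pair of units, GAANNTTC or TTCNNGAA, which lies inside the longer motif and was found in 13.5% of all windows, was the only match in 4 further genes. The lines of HSPA1A and HSPA1B are shown for how alike the copies are.
HSPA1A, chr6:31815426-31815455, plus strand, -106 to -99: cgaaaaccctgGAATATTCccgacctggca
HSPA1B, chr6:31827622-31827651, plus strand, -105 to -98: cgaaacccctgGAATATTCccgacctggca
DNAJB1, chr19:14518456-14518485, minus strand, -77 to -70: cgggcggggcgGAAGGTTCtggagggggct
HSPB1, chr7:76302480-76302509, plus strand, -182 to -175: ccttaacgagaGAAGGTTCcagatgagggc
The windows of HSPH1 and HSPE1 held neither motif. A match describes the sequence and is not evidence of binding, and a missing match says only that the letters are not in that window.

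The libraries held 29209142 to 42206773 reads on genes in HPDE and 29874928 to 46490312 in HPNE, among them 19729 to 115184 for HSPA8 and 55 to 314 for HSPE1. HPDE cells carried the duct epithelial markers (8 genes, summed 1446 to 3529 FPKM, a read number corrected for gene length and library depth), including KRT19 and EPCAM. HPNE cells had a summed 6.89 to 16.5 FPKM over the same 8 genes and 9059 to 13644 FPKM over 6 mesenchymal genes, which in HPDE summed to 128 to 181 FPKM. The series title calls both lines epithelial, and by these markers HPNE did not match that name. Acinar, endocrine, immune and endothelial lists summed to at most 0.351 FPKM in any library. In HPNE, 1 library of each group lay 2.05 to 3.31 times as far from its fellows as they did from each other (untreated replicate 3, residual medium replicate 3, PANC-1 EV replicate 1 and PPCL-68 EV replicate 1), against 1.08 to 1.24 times in HPDE. HPNE results are therefore given with and without them. They were picked by their distance in these data, so leaving them all out narrows the spread by construction. Adjusted p-values and counts from that setting are too favourable, and more of all genes are called in it. In these bulk libraries, fewer cells that express a gene and less RNA per cell cannot be told apart, and FPKM states each gene relative to the total of its library.

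In untreated HPDE cells the FPKM values of the 10 genes spanned more than 2 orders of magnitude, and HSP90AA1, HSPA8 and HSP90AB1 led. The span rests on HSPE1, whose counts are a partial measure for reasons given below. HSP90AA1 stood at 1386 ± 10.9 FPKM (SD, n = 3), HSPA8 at 1096 ± 19.5 and HSP90AB1 at 924 ± 7.67. Then came HSPD1 at 506, HSPB1 at 134, DNAJB1 at 69, HSPH1 at 38.4, HSPA1B at 33.2, HSPA1A at 16.2 and HSPE1 at 8.31 FPKM. No neighbours in this order overlapped. Untreated HPNE cells had another order: HSPA8 led at 519 ± 20.4 FPKM, ahead of HSP90AB1 at 348 ± 4.02, then HSPB1 at 248 ± 10.7 and HSP90AA1 at 235 ± 41.8, which overlapped. HSPD1 followed at 109, DNAJB1 at 44.7, HSPH1 at 24.3, HSPA1A at 9.12 and HSPA1B at 8.89, which overlapped, and HSPE1 at 2.34 FPKM.

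Between the untreated lines all 10 genes passed the test, which is read against 81.5% of all 10483 genes tested. The test, here and below, was limma on log2(FPKM + 1), called at a Benjamini-Hochberg adjusted p under 0.05 over all genes, and log2 differences are on that scale. HSP90AA1 was 5.89-fold higher in HPDE (log2 difference 2.57, SE 0.17, limma adjusted p = 1.23e-11) and HSPD1 was 4.63-fold higher (2.21, SE 0.15, limma adjusted p = 2.43e-11). HSPA1B was 3.73-fold higher in HPDE, while its near-copy HSPA1A was 1.77-fold higher. HSPB1 was the exception, at 1.85-fold the HPDE level in HPNE (log2 difference -0.89, SE 0.10, limma adjusted p = 7.28e-08). The median of all genes was 0.34 higher in HPDE (5804 genes called higher, 2744 lower). With division by size factors, a scaling to the median gene, that median was 0.03 (4306 higher, 4034 lower), and 9 of the 10 genes still passed, HSPH1 being the exception. The plot of levels in each library shows both lines.

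**Figure D1:**
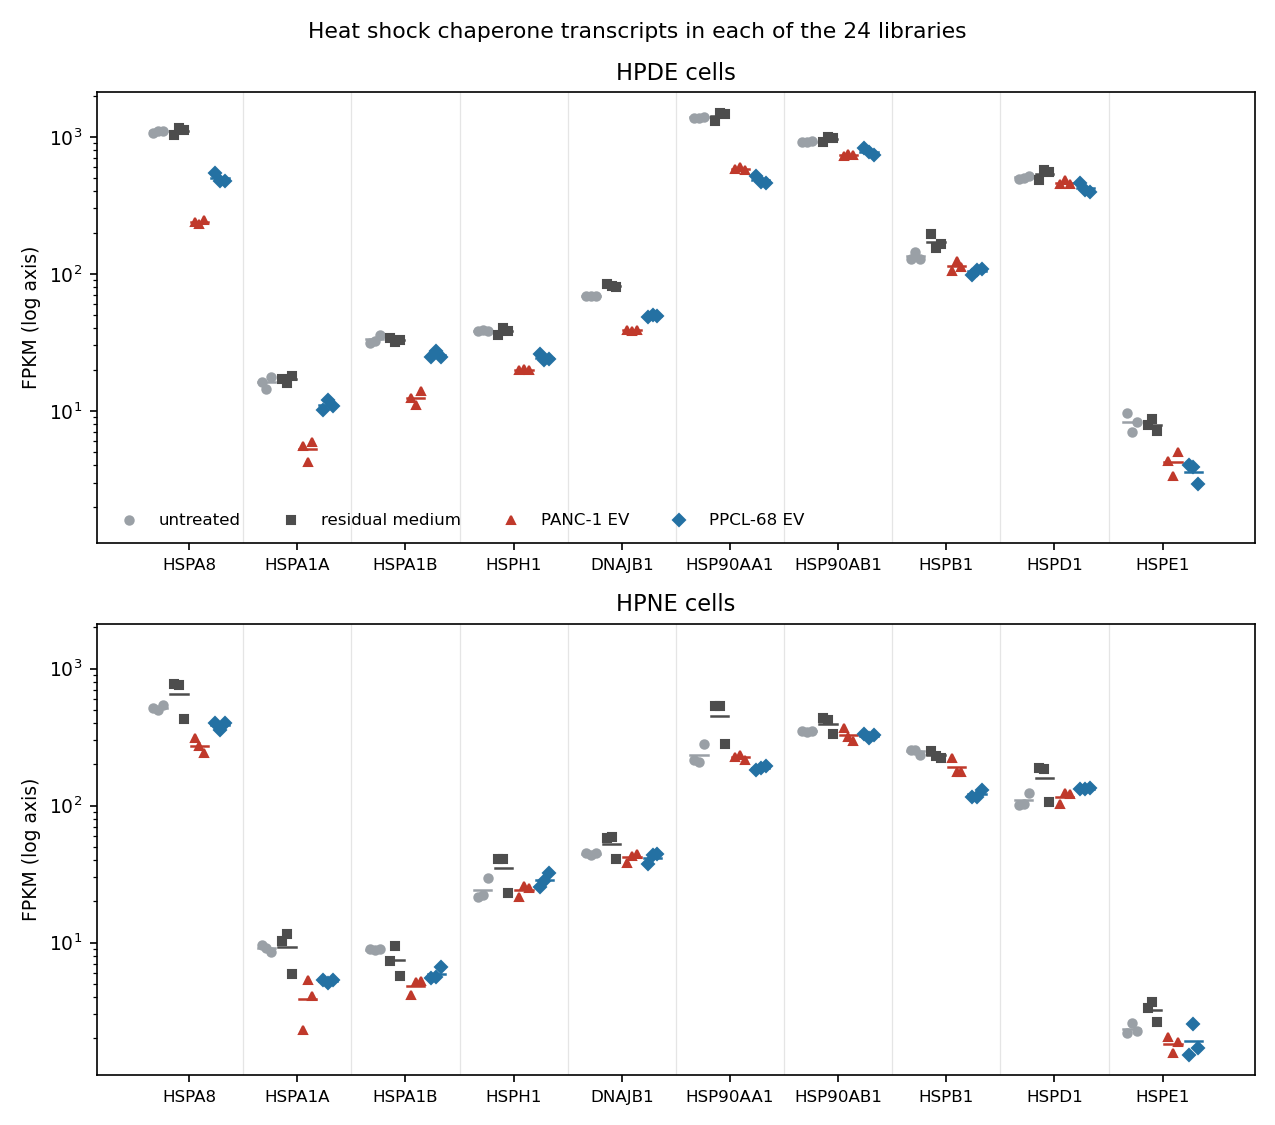
FPKM (log axis) of the 10 chaperone genes in each of the 24 libraries, HPDE above and HPNE below. Points are libraries by treatment and bars are group means. In HPDE the vesicle-treated libraries sit below both controls for all 10 genes, by a narrow margin for HSPB1 and HSPD1. In HPNE residual medium replicate 3 sits apart from the other 2 for most genes.

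In HPDE cells the cytosolic HSP70 genes were lower after both kinds of vesicle, and lower after PANC-1 EV than after PPCL-68 EV. HSPA8 (chr11:122928197-122933938, minus strand, positions as the deposited tables give them) read 1073, 1108 and 1106 FPKM in the 3 untreated libraries and 1038, 1167 and 1129 FPKM with residual medium. With PANC-1 EV it read 238, 231 and 245 FPKM, and after PPCL-68 EV 545, 480.0 and 478 FPKM. The 2 controls overlapped, and each vesicle group lay apart from them and from the other. HSPA8 thus stood at 21.4% of residual medium after PANC-1 EV (log2 difference -2.22) and at 45.1% after PPCL-68 EV (-1.15), with no test for the reason given above. The 1 HPDE comparison that used neither the PANC-1 EV nor the residual medium libraries, PPCL-68 EV against untreated, put HSPA8 at -1.13 (SE 0.06, limma adjusted p = 6.51e-10).

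The inducible pair followed the same order at much lower levels. HSPA1B (chr6:31795512-31798031) read 33.8, 31.8 and 33.1 FPKM with residual medium, 12.4, 11 and 13.9 with PANC-1 EV and 24.5, 27.4 and 24.9 with PPCL-68 EV. HSPA1A (chr6:31783291-31785717) read 17.2, 16 and 17.8, 5.51, 4.23 and 5.95 and 10.2, 12 and 10.8 FPKM. None of these groups overlapped. HSPA1A fell 3.25-fold with PANC-1 EV (log2 difference -1.54, SE 0.10, limma adjusted p = 7.23e-09) and 1.55-fold with PPCL-68 EV (-0.59, limma adjusted p = 7.58e-05). HSPA1B fell 2.65-fold (-1.34, SE 0.07, limma adjusted p = 1.88e-09) and 1.28-fold (-0.35, limma adjusted p = 0.000688). The ratio of HSPA8 to the sum of HSPA1A and HSPA1B, a description since it holds the selected HSPA8 value, was 22.3 in both HPDE controls, 13.6 after PANC-1 EV and 13.8 after PPCL-68 EV. In HPNE it was 28.8 untreated, 39.2 with residual medium, 33.3 after PANC-1 EV (26.0 to 48.0 over the libraries) and 34.6 after PPCL-68 EV. The pair cannot be read as independent genes, since 72.56% of the 50-base words of the HSPA1A transcript also occur in HSPA1B.

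The partners of HSP70 moved the same way. DNAJB1 (chr19:14625582-14640582), the J-protein, read 84.2, 81.5 and 80.4 FPKM with residual medium, 39.2, 38.6 and 38.9 with PANC-1 EV and 48.4, 49.8 and 49.2 with PPCL-68 EV, each group narrow and apart. It fell 2.11-fold with PANC-1 EV (log2 difference -1.06, SE 0.04, limma adjusted p = 1.50e-11) and 1.67-fold with PPCL-68 EV (-0.73, limma adjusted p = 3.49e-10). HSPH1 (chr13:31710762-31736525), the nucleotide exchange factor, read 36.1, 40.4 and 38.5 FPKM with residual medium, 19.996, 20.2 and 19.9 with PANC-1 EV and 25.8, 23.5 and 24 with PPCL-68 EV. Its falls were 1.92-fold (-0.90, SE 0.05, limma adjusted p = 1.17e-09) and 1.57-fold (-0.63, limma adjusted p = 3.15e-08). HSPH1 shares no 50-base word with any other gene, and DNAJB1 shares 2.57%, so near-copies bear little on either.

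The HSP90 isoforms parted. HSP90AA1 (chr14:102547075-102606036), the inducible isoform, read 1311, 1505 and 1461 FPKM with residual medium, 582, 606 and 569.8 with PANC-1 EV and 517, 465 and 459 with PPCL-68 EV. HSP90AB1 (chr6:44214824-44221620), the constitutive isoform, read 912, 994 and 983, 725, 749.6 and 734 and 825, 770.2 and 741 FPKM. Vesicle and residual medium libraries did not overlap for either gene, but the distance differed. HSP90AA1 fell 2.43-fold with PANC-1 EV (log2 difference -1.28, SE 0.06, limma adjusted p = 5.04e-10) and 2.97-fold with PPCL-68 EV (-1.57, limma adjusted p = 3.85e-11). HSP90AB1 fell 1.31-fold (-0.39, SE 0.05, limma adjusted p = 1.78e-05) and 1.24-fold (-0.31, limma adjusted p = 0.000121). The ratio of HSP90AA1 to HSP90AB1 was 1.5 untreated, 1.48 with residual medium, 0.796 after PANC-1 EV and 0.616 after PPCL-68 EV, so the isoform in excess changed from HSP90AA1 to HSP90AB1 in every vesicle-treated HPDE library. In HPNE the same ratio was 0.676 untreated, 1.11 with residual medium, 0.694 after PANC-1 EV and 0.578 after PPCL-68 EV. There, residual medium replicate 3 stood at 0.847 and the other 2 residual medium libraries above 1.

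**Figure D2:**
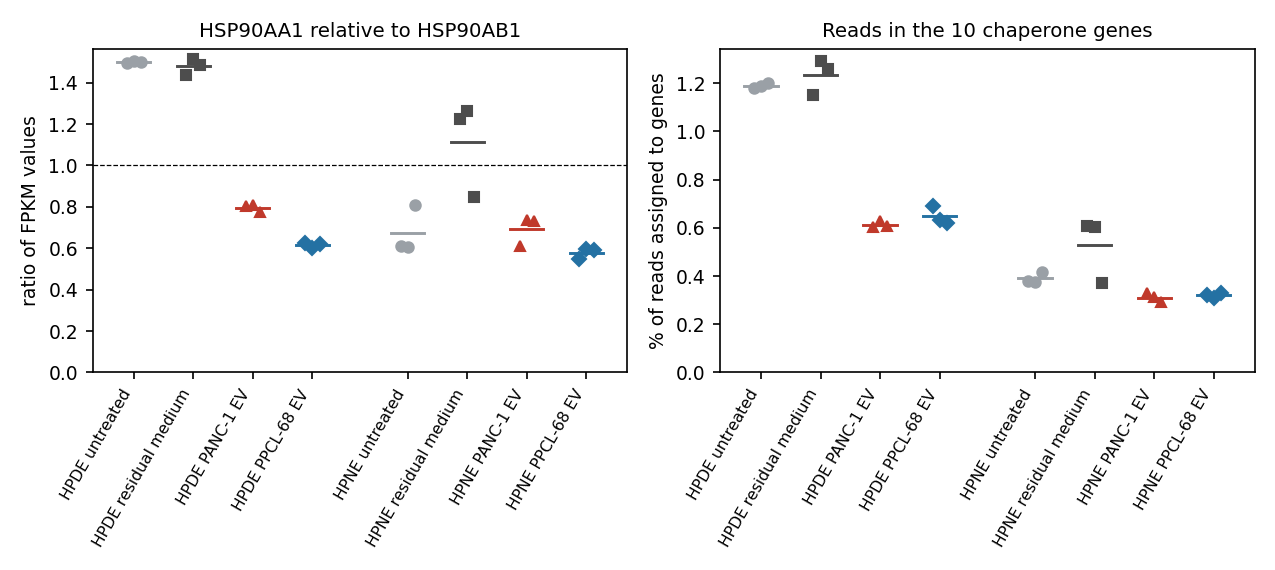
Left, the ratio of HSP90AA1 to HSP90AB1 FPKM in each library, with a dashed line at 1. Right, the percent of reads assigned to genes that fall in the 10 chaperone genes, HSPA8 included. Points are libraries and bars are group means of 3. HPDE ratios stand above 1 in all 6 control libraries and below 1 in all 6 vesicle libraries, and the HPDE share falls from 1.23% with residual medium to 0.612% and 0.648%.

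The small heat shock protein and the mitochondrial pair also fell in HPDE. HSPB1 (chr7:75931861-75933612) read 196, 154 and 165 FPKM with residual medium, 105, 124 and 113 with PANC-1 EV and 97.3, 107 and 109 with PPCL-68 EV, and untreated libraries stood between at 129, 145 and 128. It fell 1.51-fold with PANC-1 EV (log2 difference -0.58, limma adjusted p = 2.96e-05) and 1.65-fold with PPCL-68 EV (-0.71, limma adjusted p = 3.29e-06) against residual medium. HSPD1 (chr2:198351305-198381461), the HSP60 subunit, read 486, 575 and 556 FPKM with residual medium, 449.6, 481 and 453 with PANC-1 EV and 457, 409.7 and 393 with PPCL-68 EV, the smallest fold of the 10 with PANC-1 EV. Its falls were 1.17-fold (-0.22, SE 0.07, limma adjusted p = 0.0102) and 1.28-fold (-0.36, limma adjusted p = 0.000268), and the PANC-1 EV fall was no longer called without residual medium replicate 2. HSPE1 (chr2:198364718-198368181), the HSP10 lid of the same chamber, read 7.92, 8.77 and 7.13 FPKM with residual medium, 4.29, 3.34 and 4.99 with PANC-1 EV and 4.0, 3.88 and 2.91 with PPCL-68 EV, and fell 1.89-fold (-0.79, limma adjusted p = 0.000102) and 2.21-fold (-0.96, limma adjusted p = 1.18e-05). HSPE1 counts are a partial measure: the gene lies inside the span of HSPD1, 3045 of its 3464 bases overlap a MOB4 row listed at 0 in all 24 libraries, and 27.2% of its 50-base words occur in other genes.

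Counted together, 9 of 9 tested chaperone genes fell with PANC-1 EV against residual medium in HPDE, where 35.1% of all 12223 genes tested were called lower and 28.2% higher. With PPCL-68 EV 9 of 9 also fell, against 36.4% lower and 31.3% higher among all genes. Both comparisons share the residual medium libraries. The median log2 difference of the 9 genes other than HSPA8 was -0.90 with PANC-1 EV, beside -0.04 over all genes tested, and -0.63 with PPCL-68 EV, beside -0.03. These 9 genes together held 0.920% of reads in untreated HPDE cells, 0.961% with residual medium, 0.553% after PANC-1 EV (57.6% of residual medium) and 0.524% after PPCL-68 EV (54.6%). With HSPA8 included, as a description, the 10 genes held 1.19%, 1.23%, 0.612% and 0.648% in the same order. In HPNE the share of the 10 genes was 0.390% untreated, 0.528% with residual medium, 0.311% after PANC-1 EV and 0.321% after PPCL-68 EV. Against untreated HPDE cells, 8 of 9 tested genes fell with PANC-1 EV, where 34.4% of all genes were called lower, and HSPD1 did not pass (-0.13, limma adjusted p = 0.101). In that comparison the call on HSPB1 (-0.23, limma adjusted p = 0.0261) was lost without untreated replicate 2, PANC-1 EV replicate 1 or PANC-1 EV replicate 3. With PPCL-68 EV 10 of 10 fell against untreated cells, beside 36.1% of all genes, from -0.25 for HSP90AB1 to -1.53 for HSP90AA1.

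**Figure D3:**
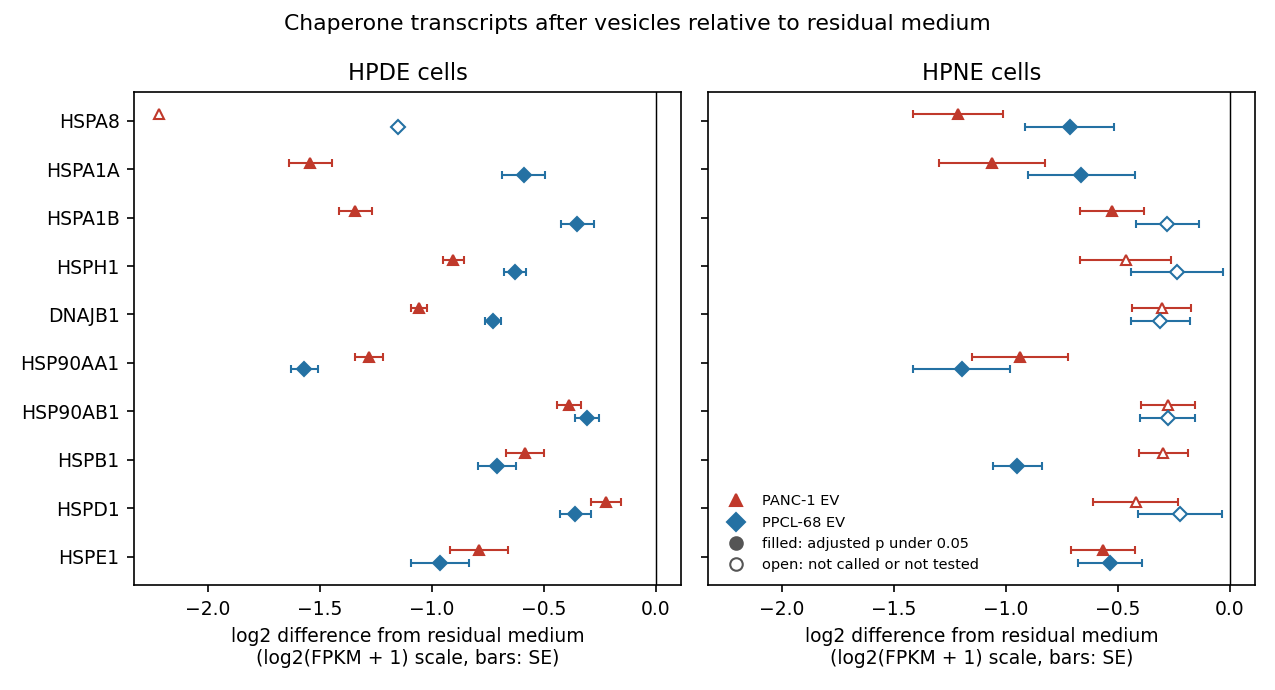
Log2 difference of each chaperone gene between vesicle-treated cells and residual medium on the log2(FPKM + 1) scale, HPDE left and HPNE right, with bars of 1 SE. Filled symbols passed an adjusted p under 0.05 and open symbols did not or, for HSPA8 in HPDE, were not tested and carry no bar. All 20 HPDE and all 20 HPNE values lie below 0, from -2.22 for HSPA8 to -0.22 for HSPD1.

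The 2 vesicle sources differed in HPDE by gene rather than throughout. Of 9 tested genes 5 differed between PANC-1 EV and PPCL-68 EV, near the 50.1% of all genes that did. HSPA1B (-0.99, SE 0.07, limma adjusted p = 1.16e-07), HSPA1A (-0.95, SE 0.10, limma adjusted p = 2.13e-06), DNAJB1 (-0.33, limma adjusted p = 4.02e-06) and HSPH1 (-0.27, limma adjusted p = 0.000269) were lower with PANC-1 EV. HSP90AA1 went the other way and was higher with PANC-1 EV (0.29, SE 0.06, limma adjusted p = 0.00139). HSPA8, given without a test, was 2.1-fold lower with PANC-1 EV. HSP90AB1 (-0.08, limma adjusted p = 0.223), HSPB1 (0.13, 0.231), HSPD1 (0.14, 0.104) and HSPE1 (0.18, 0.276) overlapped between the sources and did not pass.

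Residual medium itself raised 2 of 9 tested genes in HPDE against fresh medium, near the 20% of all genes that changed in either direction. DNAJB1 went from 69.4, 68.4 and 69 FPKM untreated to 84.2, 81.5 and 80.4 (log2 difference 0.25, SE 0.04, limma adjusted p = 0.000294), and HSPB1 rose 1.28-fold (0.35, SE 0.08, limma adjusted p = 0.0101). The groups did not overlap for either gene. The other 7 tested genes lay between -0.05 (HSPE1) and 0.09 (HSPD1).

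In HPNE cells the same genes were lower with vesicles than with residual medium by their means. That did not hold for every gene against untreated cells, as given below. How many passed moved with single libraries, most of all with residual medium replicate 3. HSPA8 read 775, 765 and 429.6 FPKM with residual medium, 309, 272 and 242 with PANC-1 EV and 403, 354 and 403 with PPCL-68 EV. HSP90AA1 read 531, 535 and 281, 225, 233 and 216 and 182, 187 and 193 FPKM. The third residual medium library was well below the other 2 for both genes but still above every vesicle library. HSPA8 fell 2.39-fold with PANC-1 EV (log2 difference -1.21, SE 0.20, limma adjusted p = 0.00234) and 1.7-fold with PPCL-68 EV (-0.72, SE 0.20, limma adjusted p = 0.0157). HSP90AA1 fell with PANC-1 EV (-0.94, SE 0.22, limma adjusted p = 0.011) and after PPCL-68 EV (-1.20, limma adjusted p = 0.00169).

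HSPA1A, the inducible HSP70, read 10.3, 11.5 and 5.87 FPKM with residual medium, 2.31, 5.31 and 4.1 with PANC-1 EV and 5.35, 5.1 and 5.29 with PPCL-68 EV, and it fell with both (log2 differences -1.06 and -0.66, limma adjusted p = 0.01 and 0.0446). HSPE1 read 3.33, 3.66 and 2.63, 2.06, 1.56 and 1.88 and 1.52, 2.54 and 1.7 FPKM and also fell with both (-0.57 and -0.54, limma adjusted p = 0.0158 and 0.0122). Of the remaining genes, HSPA1B fell with PANC-1 EV (-0.53, limma adjusted p = 0.0218). HSPB1 fell with PPCL-68 EV, from 250.5, 228 and 223 FPKM to 116, 116 and 130.4 (-0.95, SE 0.11, limma adjusted p = 0.000142). For each source, then, 5 of 10 genes fell, beside 10.3% of all 11503 genes called lower and 13.9% higher with PANC-1 EV, and 19.7% lower and 20.3% higher with PPCL-68 EV. The medians of the 10 genes were -0.50 and -0.42, beside 0.02 and 0.00 over all genes. With division by size factors, 7 of 10 fell with PANC-1 EV and 6 of 10 with PPCL-68 EV, and all genes with PANC-1 EV split into 1341 higher and 1850 lower in place of 1599 and 1185. The split of all genes with PPCL-68 EV in that setting is not given here.

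DNAJB1, HSPH1, HSP90AB1 and HSPD1 passed neither test in HPNE. DNAJB1 read 58, 59 and 40.7 FPKM with residual medium, 38.2, 43.2 and 44.4 with PANC-1 EV and 37.4, 43.4 and 44.4 with PPCL-68 EV. HSPD1 read 188, 186 and 106, 102, 124 and 121 and 132, 132 and 134 FPKM. In both genes the third residual medium library fell among the vesicle libraries or next to them, and the other 2 stood above them all. Without residual medium replicate 3, 10 of 10 genes fell with PANC-1 EV, beside 21.4% of all genes, and 10 of 10 with PPCL-68 EV, beside 25.7%. DNAJB1 was then at -0.47 (limma adjusted p = 0.00278) and HSPD1 at -0.69 (0.000971) with PANC-1 EV. Without residual medium replicate 1 or replicate 2, in contrast, 2 of 10 passed with PANC-1 EV, and 3 and 2 of 10 with PPCL-68 EV. Without PPCL-68 EV replicate 2, 3 of 10 passed with PPCL-68 EV. Shares of all genes in these fits without 1 of those libraries are not given here. The call on HSPA1A with PPCL-68 EV was lost in 9 of the 12 fits that each left out 1 library, all except those without PANC-1 EV replicate 1 or 2 or residual medium replicate 3. With PANC-1 EV, the calls on HSPA1B and HSPE1 were also lost without PANC-1 EV replicate 1 and PANC-1 EV replicate 2, respectively. Without all 4 libraries that lay apart, 10 of 10 fell with either source, beside 30.8% and 37.3% of all genes. Those libraries were chosen for their distance, which narrows the spread. The shares of all genes called lower were 10.3% and 19.7% with every library kept.

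Residual medium raised 2 of 10 chaperones of HPNE, near the 18.7% of all genes called higher, in values that 2 of its 3 libraries carried. HSP90AA1 read 214, 208 and 284 FPKM untreated and 531, 535 and 281 with residual medium, a 1.91-fold rise (0.88, SE 0.22, limma adjusted p = 0.00836) in which the groups overlapped. HSPD1 read 101.5, 103 and 123.1 and 188, 186 and 106 FPKM and passed narrowly (0.51, limma adjusted p = 0.0482). These were the 2 of 10 that changed, beside 43.9% of all genes in either direction. HSPH1 (0.47, 0.0834) and HSPA8 (0.29, 0.257) did not pass. Without residual medium replicate 3, 7 of 10 rose, beside 26.3% of all genes called higher and 26.3% lower. HSPA8, HSPH1, HSP90AB1, DNAJB1 and HSPE1 joined, with HSP90AA1 at 1.19 (limma adjusted p = 8.40e-05). The call on HSPD1 was lost in 10 of the fits that each left out 1 HPNE library, all except those without untreated replicate 3 or residual medium replicate 3. With division by size factors 5 of 10 rose, and the split of all genes moved from 2153 higher and 2899 lower to 3329 higher and 2085 lower.

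Comparisons of vesicles with untreated HPNE cells do not use residual medium replicate 3 in either group compared. It still entered the estimate of spread that the HPNE fit shares. With PANC-1 EV 4 of 10 fell, beside 11.5% of all genes called lower: HSPA8 from 513, 503 and 542 FPKM untreated (-0.92, SE 0.20, limma adjusted p = 0.00939), HSPA1A (-1.09, 0.0095), HSPA1B (-0.77, 0.00435) and HSPB1 (-0.38, 0.0299). With PPCL-68 EV 3 of 10 fell, beside 23.8%: HSPB1 (-1.03, limma adjusted p = 5.12e-05), HSPA1A (-0.69, 0.0352) and HSPA1B (-0.52, 0.0128). HSPA8 stood at -0.43 with PPCL-68 EV and did not pass (limma adjusted p = 0.107). In the fit without residual medium replicate 3, 6 of 10 differed with PPCL-68 EV, beside 49% of all genes in either direction. HSPA8 (limma adjusted p = 0.0077) and HSP90AA1 (0.0405) then joined as lower and HSPD1 (0.0322) as higher. HSP90AA1, DNAJB1 and HSPD1 stood at -0.05, -0.09 and 0.09 with PANC-1 EV, and none passed. HSPB1 was also the 1 gene of 10 that differed between the sources in HPNE, where 5.47% of all genes did, being higher with PANC-1 EV at 223, 175 and 176 FPKM (0.65, SE 0.11, limma adjusted p = 0.00949). That call was lost without PPCL-68 EV replicate 2. The call on HSPA1A with PPCL-68 EV against untreated cells was lost without any 1 of the 6 untreated and PPCL-68 EV libraries, and that on HSPB1 with PANC-1 EV without untreated replicate 1 or 2 or PANC-1 EV replicate 2 or 3. With division by size factors the calls on HSPB1 after PANC-1 EV and HSPA1A after PPCL-68 EV were lost, leaving 3 and 2 of 10. All genes then split into 1509 higher and 1079 lower with PANC-1 EV (1105 and 1325 without that step) and into 2826 and 2296 with PPCL-68 EV (2151 and 2740). Without the 4 libraries that lay apart, 7 of 10 differed from untreated cells with either source, near the share of all genes that did, 62.7% with PANC-1 EV and 69.5% for the other source. HSPH1 and HSPD1 were then higher than untreated with PANC-1 EV (0.22 and 0.26, limma adjusted p = 0.0133 and 0.000389) and with PPCL-68 EV (0.45 and 0.38, limma adjusted p = 0.00014 and 2.00e-05). These p-values rest on a spread narrowed by that choice of libraries.

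The difference between the lines was tested for 9 genes, as HPDE minus HPNE. In the PANC-1 EV effect against residual medium 2 of 9 differed, beside 18.2% of all genes: HSPA1B (-0.81, SE 0.17, limma adjusted p = 0.00205) and DNAJB1 (-0.75, SE 0.14, limma adjusted p = 0.000831), both with the larger fall in HPDE. HSPD1 went the other way and did not pass (0.20, limma adjusted p = 0.526). It was called without HPNE residual medium replicate 3 (0.47, limma adjusted p = 0.0091), with the larger fall in HPNE. In the PPCL-68 EV effect 1 of 9 differed, beside 23% of all genes, again DNAJB1 (-0.42, SE 0.14, limma adjusted p = 0.0338). That call was lost in 8 of the fits that each left out 1 library: HPNE PPCL-68 EV replicate 2 or 3, or any HPDE residual medium or PPCL-68 EV library. In the residual medium effect against untreated cells 2 of 9 differed, beside 38.1%: HSP90AA1 (-0.84, limma adjusted p = 0.00899) rose in HPNE and stood at 0.04 in HPDE, and HSPB1 (0.44, 0.0216) rose in HPDE and stood at -0.09 in HPNE. With division by size factors HSPH1 took the place of HSPB1. The call on HSPB1 was lost without HPDE untreated replicate 1 or 3 or HPDE residual medium replicate 1. HSP90AA1 and HSPH1, which fell further in HPDE by their means with PANC-1 EV, did not pass this test of the lines' difference (-0.34 and -0.44, limma adjusted p = 0.316 and 0.166).

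Other genes of the cytosolic chaperone network were read from lists written from general knowledge, with earlier results of these data known. Counts over these lists are therefore a description. In HPDE the subunits of TRiC and prefoldin, which fold actin and tubulin, fell in 12 of 14 genes with PANC-1 EV and 13 of 14 with PPCL-68 EV, and none rose, beside the 35.1% and 36.4% of all genes called lower. Their medians were -0.24 and -0.46. HSP90 partners fell in 8 of 11 (1 rose, FKBP5) and 9 of 11 (none rose). HSF1 itself read 20.3 ± 1.91 FPKM with residual medium, 22.4 ± 0.596 after PANC-1 EV and 23.5 ± 0.917 after PPCL-68 EV (SD, n = 3), a rise that passed with PPCL-68 EV (log2 difference 0.21, limma adjusted p = 0.00991) and not with PANC-1 EV (0.14, 0.0611). DNAJA1, a cytosolic J-protein that works with HSPA8, read 130.3 ± 1.2 FPKM with residual medium and fell to 56.3 ± 1.52 (-1.20, limma adjusted p = 2.72e-11) and 74.5 ± 3.58 (-0.80, limma adjusted p = 9.77e-10). BAG3, an HSP70 exchange factor that links it to autophagy, fell from 47.3 ± 2.81 to 28.6 ± 0.563 and 34 ± 1.13 FPKM (-0.70 and -0.46, limma adjusted p = 1.36e-08 and 6.14e-07). STIP1, which bridges HSP70 and HSP90, fell less (-0.42 and -0.26, limma adjusted p = 8.15e-07 and 6.22e-05). Across all J-proteins the direction was mixed, with 7 of 14 lower and 5 of 14 higher for each source, beside 28.2% and 31.3% of all genes called higher.

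Some relatives of the same families rose where the members fell. Of 7 other HSP70 and HSP110 genes in HPDE, 2 rose and 1 fell with PANC-1 EV, near the 28.2% of all genes called higher. With PPCL-68 EV 3 rose and 2 fell, beside 31.3% of all genes called higher. HSPA9, the mitochondrial HSP70, read 192 ± 7.67 FPKM with residual medium in HPDE and rose to 284 ± 1.36 after PANC-1 EV (0.56, limma adjusted p = 6.39e-08) and 298 ± 9.63 after PPCL-68 EV (0.64, limma adjusted p = 1.06e-08), while HSPD1 and HSPE1 of the same matrix fell. In HPNE HSPA9 rose from 103 ± 1.2 to 169 ± 18.7 (0.71, limma adjusted p = 0.000855) and 211 ± 8.14 FPKM (1.03, limma adjusted p = 4.80e-05). HSPA5 (BiP), the HSP70 of the endoplasmic reticulum, rose in HPDE from 357 ± 12.6 to 469.9 ± 18 and 847 ± 52.6 FPKM (0.40 and 1.24, limma adjusted p = 1.99e-05 and 1.13e-10). HSPA13, a microsomal HSP70 relative, rose with both as well (0.75 and 1.32). HSPA6, a strictly inducible cytosolic HSP70, rose with PPCL-68 EV to 4.92 ± 0.83 FPKM from 1.73 ± 0.074 (1.11, limma adjusted p = 0.000922) and was at 0.04 with PANC-1 EV (0.894). HSP90B1 (GRP94), the HSP90 of the endoplasmic reticulum, rose after PPCL-68 EV (0.35, limma adjusted p = 0.000107) and stood at -0.07 after PANC-1 EV (0.318). The 2 sources differed in HSPA6 (PANC-1 EV lower, -1.07, limma adjusted p = 0.00217). HSPA4, an HSP110 relative of HSPH1, did not pass in HPDE (-0.04 and 0.00, limma adjusted p = 0.516 and 0.943), and HSPA2, the testis-rich HSP70, fell from 4.22 ± 0.728 FPKM (-1.36 and -1.27). Of 15 endoplasmic reticulum chaperones, 4 rose and 6 fell with PANC-1 EV, near the 28.2% of all genes called higher and 35.1% lower. With PPCL-68 EV 12 rose and 1 fell, beside 31.3% of all genes called higher and 36.4% lower.

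**Figure D4:**
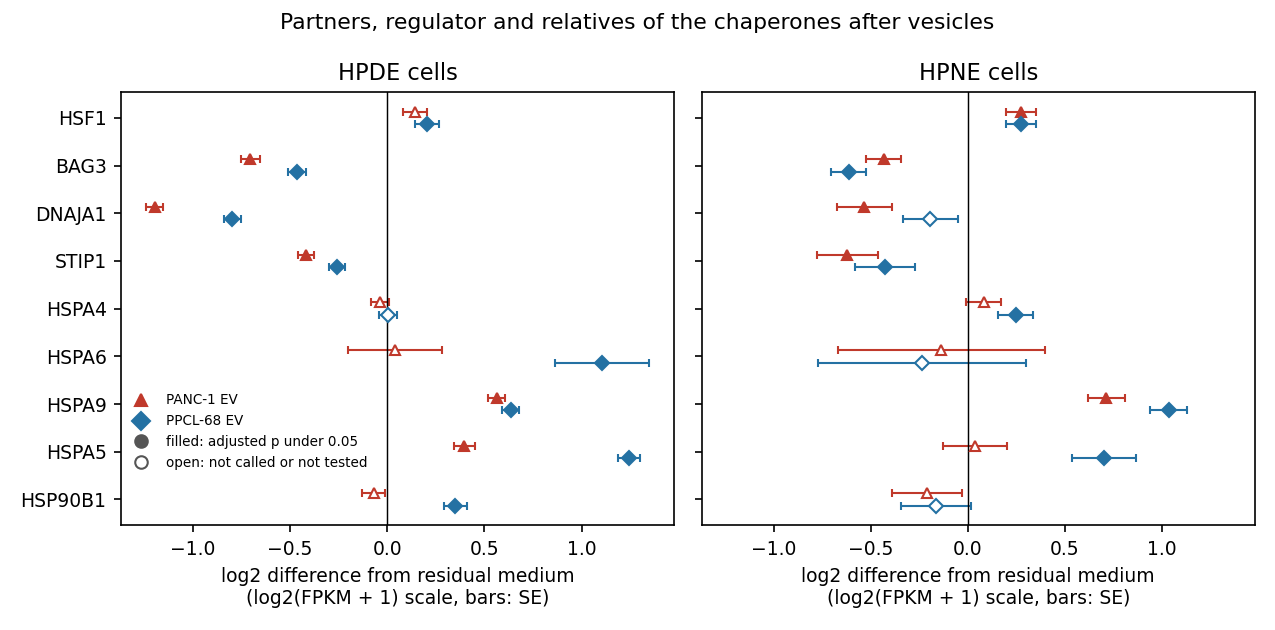
Log2 difference from residual medium, with bars of 1 SE, of the regulator HSF1, the HSP70 and HSP90 partners BAG3, DNAJA1 and STIP1, and HSP70 and HSP90 relatives, in HPDE (left) and HPNE (right). Filled symbols passed an adjusted p under 0.05. BAG3 and STIP1 lie below 0 and HSPA9 above 0 in both lines with both vesicle sources.

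In HPNE fewer genes of these lists passed against residual medium, where fewer of all genes did as well (10.3% and 19.7% lower). TRiC and prefoldin fell in 5 of 14 genes with PANC-1 EV and 6 of 14 with PPCL-68 EV, with 1 gene (PFDN2) higher after the latter, and HSP90 partners fell in 4 of 11 and 5 of 11. The medians did not all lie nearer to 0 than in HPDE: they were -0.34 and -0.36 for TRiC and prefoldin and -0.38 and -0.20 for HSP90 partners, which in HPDE stood at -0.39 and -0.26. Residual medium had raised 10 of those 14 TRiC and prefoldin genes, 6 of 11 HSP90 partners and 12 of 15 endoplasmic reticulum chaperones over untreated cells, beside 18.7% of all genes, but 1 of 8 other HSP70 and HSP110 genes, 4 of 13 J-proteins, 3 of 9 exchange factors and none of 4 HSF genes, in a comparison that shares the residual medium libraries. BAG3 did not pass between the HPNE controls (-0.11, limma adjusted p = 0.332) and fell with both sources, to 43.4 ± 0.719 and 38.2 ± 1.43 from 59 ± 0.207 FPKM (-0.43 and -0.61, limma adjusted p = 0.00737 and 0.000565). DNAJA1 fell with PANC-1 EV (-0.53, limma adjusted p = 0.0209) and not with PPCL-68 EV (-0.19, 0.305). HSPB6, a small heat shock protein related to HSPB1, was at 25.0 ± 4.19 FPKM with PPCL-68 EV and 49.4 ± 9.79 with residual medium (-0.95, limma adjusted p = 0.00206).

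Correlations among the 10 genes were higher in HPDE than in HPNE, where the 4 libraries that lay apart were included. Over the 12 libraries of a line, Pearson correlations of log2(FPKM + 1) between the 45 pairs of genes ran from 0.384 to 0.988 with a median of 0.842 in HPDE, and from -0.1 to 0.964 with a median of 0.6 in HPNE. The libraries share treatment groups and totals, so these values describe the pattern and carry no p. No correlation between all genes was computed beside them, so they are not shown to be particular to these genes. Outside the list, the genes most like HSPA8 among 5873 in HPDE were MAPKAP1 (0.990), SAFB (0.990) and PPP2R1B (0.988). Those most like DNAJB1 were HSBP1 (0.992), ESYT1 (0.987) and PRDX1 (0.987), and those most like HSPD1 were CAPZA1 (0.968), RPL14 (0.956) and TCP1 (0.955). In HPNE, among 4903 genes, HSPA8 was most like NCOA5 (0.966), SEC24C (0.962) and STARD7 (0.958). DNAJB1 was most like TAGLN2 (0.967), KIF1C (0.959) and STRA13 (0.949), and HSPD1 was most like CCT6A (0.971), SUGT1 (0.969) and PTBP1 (0.964). HSBP1 encodes a small protein that binds HSF1, and TCP1 and CCT6A are TRiC subunits.

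Processed pseudogenes limit how exactly the abundant members were counted, because the way the counting treated reads that match several places is not given in the sources used here. In transcripts of the GENCODE annotation, 26.5% of the 50-base words of HSPD1, 19.5% of HSP90AB1, 18.2% of HSP90AA1, 17.4% of HSPA8 and 11.4% of HSPB1 occur in other genes, mostly such copies. The 17 HSPA8 pseudogene rows held 0.0119 to 0.110% as many reads as HSPA8 itself. The library kit did not keep strand, and the span of DNAJB1 overlaps that of TECR on the other strand over 12686 of its 15001 bases, introns included. In the GENCODE annotation their exons share 211 of the 3672 exon bases of DNAJB1, where strand cannot tell their reads apart.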

How the data were processed

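The values used were FPKM per gene, deposited by the authors as 1 table per library with the gene length, symbol, type and position, per the file headers. Total RNA went through a column kit and a non-directional library kit, per the labels' protocols. CASAVA, STAR, HTSeq, DESeq2 and the build hg19 are named, without their roles, in the submitters' processing notes. FPKM times gene length was a whole multiple of 1 step for 100% of values (within 0.05 reads), which gave back the read count of every gene and the depths printed above.

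Sample titles gave each library its group and replicate number. The members and lists were chosen with earlier results of these data known. For each line, 12 libraries entered 1 fit in limma 3.58.1 (R 4.3.3), with a trend, on log2(FPKM + 1), restricted to genes averaging 1 FPKM or more, with the treatment as factor and 8 residual degrees of freedom. Tests were two-sided, adjusted by Benjamini-Hochberg over all genes tested, with a threshold of 0.05. Line differences and the untreated lines were contrasts in a fit of all 24 libraries (16 degrees of freedom) over genes that passed in both. The log2(FPKM + 1) scale understates the change of low genes such as HSPE1, and folds printed are ratios of mean FPKM. The script was tested on simulated counts.

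Named genes were the 10 members, 9 relatives and partners (HSF1, BAG3, HSPA6, HSPA9, STIP1, HSPA4, DNAJA1, HSPA5 and HSP90B1), and others from the 9 lists of 97 genes with the largest changes, at most 3 in each direction, of which a selection is printed. The genes most like HSPA8, DNAJB1 and HSPD1 were the 3 outside the list with the highest correlation among protein-coding genes of mean FPKM of at least 10.

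The fits were repeated with size factors, with no filter on low values, with a pseudocount of 0.1, on only the libraries compared, with a replicate block, with limma voom on the recovered counts, without each library in turn, and without the 4 HPNE libraries that lay apart. Same-numbered libraries deviated together in the HPNE pair of PANC-1 EV and PPCL-68 EV (correlations 0.565, 0.292 and 0.500) and not in every pair elsewhere. No 2 libraries of a group agreed within sampling noise. Intervals of counting error are not printed because the spread between libraries exceeded it, and amplified reads are not independent molecules.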

Additional observations from a re-analysis of the deposited data

Results flagged for a closer look

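Chaperone genes whose response differed between the lines are listed here as HPDE minus HPNE log2 differences. The PANC-1 EV effect against residual medium differed for HSPA1B (-0.8134, SE 0.17, limma adjusted p = 0.00205) and for DNAJB1 (-0.7537, SE 0.14, limma adjusted p = 0.000831). The PPCL-68 EV effect differed for DNAJB1 (-0.4176, SE 0.14, limma adjusted p = 0.0338). The residual medium effect against untreated cells differed for HSP90AA1 (-0.8449, SE 0.23, limma adjusted p = 0.00899) and HSPB1 (0.4358, SE 0.14, limma adjusted p = 0.0216). These are 2, 1 and 2 of 9 tested genes, beside 18.2%, 23% and 38.1% of all genes. Without HPNE residual medium replicate 3 the values were -0.66, -0.58, -0.25, -1.15 and 0.40, in the same order, and all 5 still passed (limma adjusted p from 2.51e-06 to 0.0367). Other libraries mattered more. Of 24 fits that each left out 1 library, 8 lost the DNAJB1 call for PPCL-68 EV and 3 lost the HSPB1 call, which size factors also removed. Groups of 3 libraries were too small for a search for single outlying values.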

How the results depend on the processing

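Counts of chaperone genes called depended on the setting mainly in HPNE. The share of all genes called moved with the setting too, and it is printed only where stated. A changed count below is therefore not a result about these genes in particular. With no filter on low values they were 3 in HPNE for PANC-1 EV and 3 for PPCL-68 EV against residual medium, 1 for residual medium against untreated in HPNE and 1 in HPDE, and 0 for the line difference in the PPCL-68 EV effect, where more genes entered the adjustment. With only the libraries compared they were 2, 3 and 1 for the same HPNE comparisons, 5 for PPCL-68 EV against untreated HPNE, and 0 and 1 for the line differences in the PPCL-68 EV and residual medium effects. Size factors gave 5 for residual medium against untreated HPNE. With the replicate block that count was 1, and the block changed no other count by over 1.5 times. Without the 4 HPNE libraries that lay apart, HPNE counts were 10, 10 and 7 for PANC-1 EV, PPCL-68 EV and residual medium in the first 3 comparisons, 7 and 7 for the sources against untreated and 5 between sources (beside 58.9%, 65.5%, 71.7%, 62.7%, 69.5% and 36.4% of all genes in either direction). The line differences gave 5, 2 and 6 in that setting, and the matching shares of all genes are not given here. Spread in that setting is narrowed by the choice of libraries.

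Leaving out 1 library at a time, the HPNE counts ran from 2 to 10 for PANC-1 EV and for PPCL-68 EV against residual medium, 1 to 7 for residual medium against untreated, 3 to 4 for PANC-1 EV and 2 to 6 for PPCL-68 EV against untreated, and 0 to 2 between sources. The line differences ran from 2 to 3, 0 to 1 and 1 to 4. HPNE residual medium replicate 3 gave the highest counts against untreated and between sources (6 and 2), as well as for residual medium, and 4 for the line difference. In HPDE the count ran from 8 to 9 for PANC-1 EV against residual medium and 7 to 8 against untreated, and for PPCL-68 EV it was 9 and 10 in every such fit.

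Of 2400 single-gene values without 1 library, 2309 were classed as unchanged, 57 lost and 30 gained a call. The unchanged class includes values that changed sign where neither fit passed. An example is HSPA1A for residual medium against untreated HPNE, at -0.03 with a range of -0.20 to 0.23. Turns of sign that passed in either fit, or that concern HSPA8 where it was untested, are given next. DNAJA1 turned from -0.01 to 0.13 (limma adjusted p = 0.0415) for residual medium against untreated HPNE without the 4 libraries, DNAJB1 in the line difference from 0.04 to -0.1431 (limma adjusted p = 0.0236), and HSPA8 in residual medium against untreated HPDE from 0.02 to -0.0174 without residual medium replicate 2 (range -0.0174 to 0.067 over the fits without 1 library). The cause of these changes was not tested. Depth limits HSPE1, at 55 to 314 reads per library, more than the other genes.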
